A study of Mus musculus with 10 samples.

Results

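The genes described here are those of MHC class II antigen presentation and of costimulation: H2-Aa, H2-Ab1, H2-Eb1, H2-Ea, H2-DMa, Cd74, Ciita, Cd80, Cd83 and Cd86. They were taken by name, with every probe that the array annotation assigns to them, which gave 19 probes for 10 genes out of 45281 probes on the array. Illumina bead arrays, 10 in all, measured total RNA of neutrophils that had been purified from female mice of the strain nude NCR. Nude mice are athymic and poor in T cells. Circulating neutrophils of untreated mice without a tumor (fresh control, 2 arrays) and of untreated mice bearing tumors of the 4T1 mammary carcinoma line (fresh tumor-bearing, 2 arrays) were frozen directly. For the cultured arrays, neutrophils of mice without a tumor were kept for 2 h in OptiMEM with 0.5% FBS before freezing, with 1 array for each of 6 conditions: no addition, mCCL2, mCCL5, rhGCSF, rhGCSF+mCCL2 and rhGCSF+mCCL5, called CCL2, CCL5 and G-CSF below. The chemokines were used at 20 ng/ml, and the dose of G-CSF is not given in the labels. They list G-CSF as the treatment of cultured samples and leave unsaid if the cells met it in culture or in the animal before purification, so G-CSF values below may stand for either. Neither the age of the mice nor the number of mice per array is stated, so p-values measure only the spread between these arrays.

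MHC class II molecules are pairs of an alpha and a beta chain that show peptides from engulfed proteins to CD4 T cells. H2-Aa with H2-Ab1, and H2-Ea with H2-Eb1, encode the chains of the mouse molecules I-A and I-E. The invariant chain Cd74 holds the groove closed until H2-DM, which contains the H2-DMa chain, exchanges its fragment for a peptide. Ciita is the coactivator on which class II transcription depends, and it is recruited by factors on the X and Y boxes of the promoters. Cd80 and Cd86 are the ligands of CD28 and CTLA-4 on T cells, and Cd83 keeps class II and Cd86 at the cell surface by opposing the ubiquitin ligase Marchf1. B cells, dendritic cells and macrophages carry these proteins in quantity, whereas resting mouse neutrophils carry little of them.

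Promoter windows from RefSeq (build GRCm38.p6, the C57BL/6J reference, from 250 bases before to 50 after a transcript start) matched 4 of the 10 genes, H2-Aa, H2-Eb1, H2-DMa and Cd80. Windows of a chromosome that was set aside were not matched, so an unmatched gene may still have a RefSeq window. The windows of H2-Aa and H2-Eb1 are shown because they hold the letters of the Y box, CTGATTGG, given in capitals, and the first H2-DMa window as that of another class II gene, which does not hold them.
H2-Aa, chr17:34287774-34288073, minus strand: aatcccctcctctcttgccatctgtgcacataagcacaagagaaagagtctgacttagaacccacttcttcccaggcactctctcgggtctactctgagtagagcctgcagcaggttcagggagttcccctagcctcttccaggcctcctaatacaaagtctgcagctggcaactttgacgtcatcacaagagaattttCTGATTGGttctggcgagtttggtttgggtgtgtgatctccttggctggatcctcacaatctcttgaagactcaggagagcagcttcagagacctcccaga
H2-Eb1, chr17:34305617-34305916, plus strand: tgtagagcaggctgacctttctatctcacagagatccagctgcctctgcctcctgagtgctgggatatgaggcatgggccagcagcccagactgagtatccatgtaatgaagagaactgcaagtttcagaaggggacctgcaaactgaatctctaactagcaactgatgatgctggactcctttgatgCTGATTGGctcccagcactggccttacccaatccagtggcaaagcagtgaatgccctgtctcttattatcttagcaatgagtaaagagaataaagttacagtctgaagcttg
H2-DMa, chr17:34122582-34122881, plus strand: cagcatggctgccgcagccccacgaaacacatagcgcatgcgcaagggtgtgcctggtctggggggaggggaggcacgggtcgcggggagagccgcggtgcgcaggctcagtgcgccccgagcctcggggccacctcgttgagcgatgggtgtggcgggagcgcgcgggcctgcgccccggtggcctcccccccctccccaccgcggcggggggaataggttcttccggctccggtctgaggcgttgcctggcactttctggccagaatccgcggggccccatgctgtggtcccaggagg
Searched on both strands, CTGATTGG began at base -51 from the start of H2-Aa and at -62 from that of H2-Eb1. It was not found in the Cd80 window or in either of the H2-DMa windows. Of 32851 windows of this length 4.1% hold it. The core ATTGG, which is part of it, was in 37.4% of the windows, among them the second H2-DMa window and, once more on the opposite strand, that of H2-Eb1.

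The arrays detected 13227 to 14846 probes each, where a detection p-value below 0.05 means brighter than nearly all negative controls, with a median bead number per probe of 43 to 44. Levels are given as log2 of background-corrected, quantile-normalized signal, a scale on which the dimmest detected probe of an array lay between 4.78 and 4.92. All 11 neutrophil markers on the array were detected on all 10 arrays, except Mmp8, which was detected on 8. Among the genes described here, 13 of the 19 probes were detected on all 10 arrays. H2-Aa has a single probe, with levels from 4.24 to 4.95, which was detected on 1 array, the second fresh control. It was therefore not tested, and the other 9 genes entered every test. Each was tested on the detected probe with the highest mean over all 10 arrays, which for H2-Ab1 was the dimmest of its 3 probes on the fresh arrays, and further probes were tested in a fit over all probes. Over the beads of a single array, the standard error of the signal was 2.48% to 9.53% for these 19 probes.

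**Figure D1:**
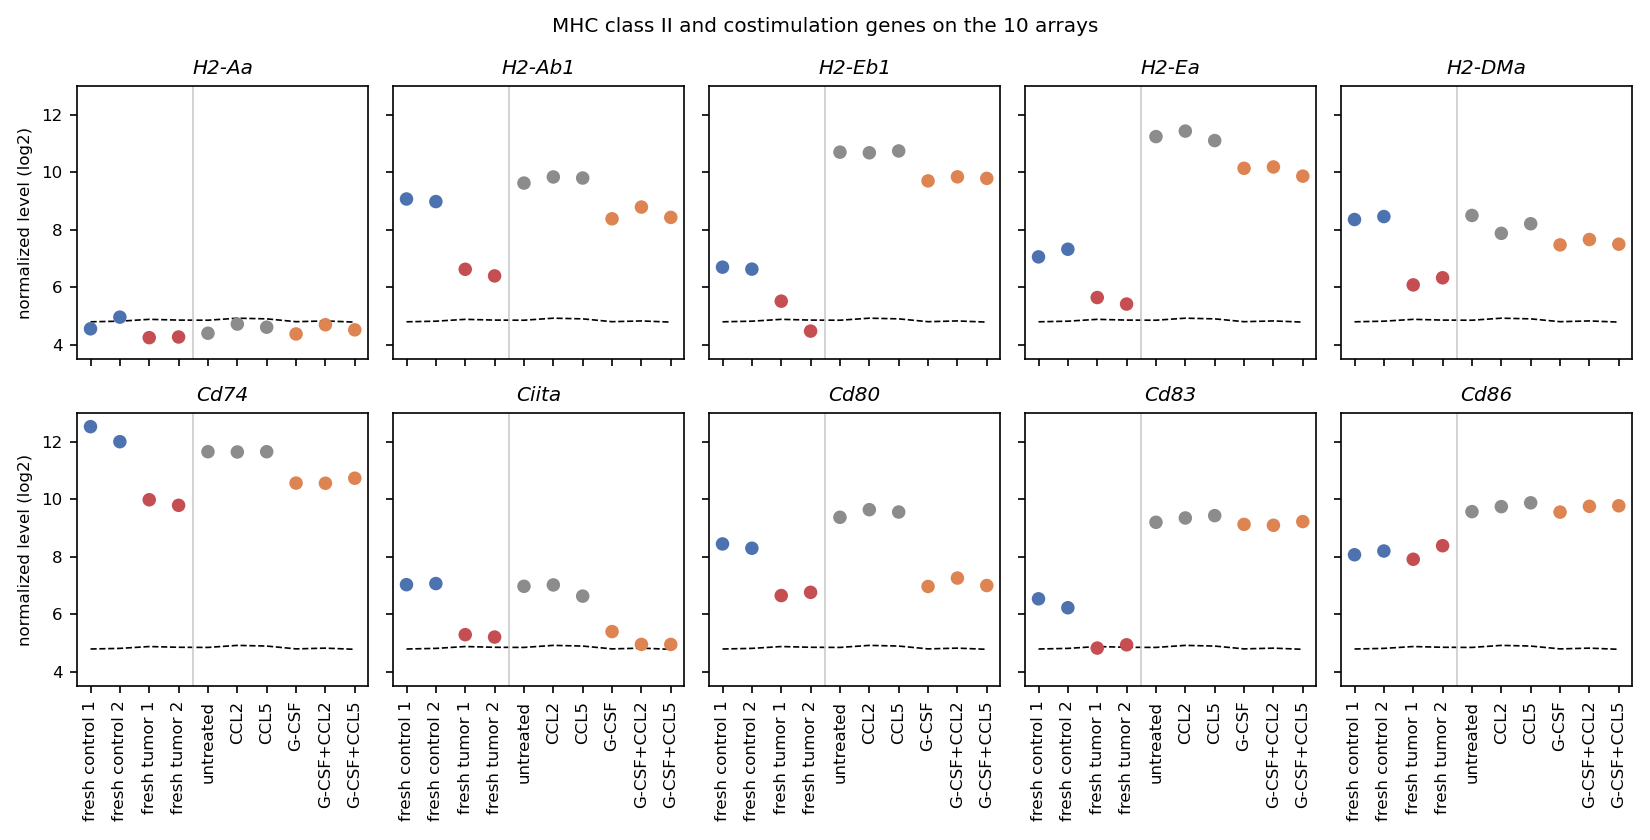
Normalized level (log2, vertical axis) of the 10 genes on each of the 10 arrays (horizontal axis), 1 point per array and 1 tested probe per gene (the only probe for H2-Aa), with the dimmest detected probe of each array as the dashed line. Fresh tumor-bearing arrays (red) lay below fresh control (blue) for all tested genes but Cd86. On this background-corrected scale, arrays with G-CSF (orange) lay below the cultured arrays without it (grey) most clearly for Cd80 and Ciita.

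The first comparison asked how these genes differed between circulating neutrophils of tumor-bearing and of control mice. The whole class II set that could be tested fell in tumor-bearing mice, by between 3.16-fold (H2-Ea) and 5.73-fold (H2-Ab1), and Ciita, their coactivator, fell with them. Of the costimulatory genes Cd80 and Cd83 fell and Cd86 did not pass the test. In all, 8 of 9 tested genes fell and 0 rose, where 15.2% of the 8019 genes tested fell and 10.8% rose (limma, adjusted p below 0.05). The median change was -1.67 on the log2 scale, against -0.04 over all tested genes.

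H2-Ab1, the I-A beta chain, stood at 9.07 and 8.98 on the control arrays and at 6.62 and 6.39 on the tumor-bearing arrays. The groups were far apart relative to the gap within each pair, with a log2 change of -2.52 ± 0.19 (SE, n = 2 and 2, limma adjusted p = 1.95e-06). Its other probes gave -2.83 and -2.58. Cd74, the invariant chain, was among the bright genes, at 12.53 and 12.01 in control and at 9.99 and 9.79 in tumor-bearing mice. It fell by 2.38 on the log2 scale (SE 0.21, limma adjusted p = 7.54e-06), and its other probes gave -2.01 and -1.25. H2-DMa, part of the peptide exchanger, was 8.35 and 8.46 in control and 6.08 and 6.32 in tumor-bearing mice, a change of -2.20 ± 0.19 (limma adjusted p = 5.59e-06). For H2-DMa too, both probes fell, the other by 1.80 on the log2 scale.

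The I-E genes were dim in fresh cells. H2-Ea stood at 7.05 and 7.32 in control and at 5.64 and 5.41 in tumor-bearing mice (-1.66 ± 0.20, limma adjusted p = 6.00e-05). H2-Eb1 stood at 6.69 and 6.62 in control, and at 5.51 and 4.47 in tumor-bearing mice, where it was detected on 1 of 2 arrays (-1.67 ± 0.28, limma adjusted p = 8.44e-04). The gap between its tumor-bearing arrays was the widest among the tested genes, and leaving out either array gave -2.19 or -1.15, still past the test. Ciita was 7.03 and 7.07 in control and 5.29 and 5.21 in tumor-bearing mice. The fall of 1.80 on the log2 scale (SE 0.18, limma adjusted p = 1.94e-05) was 3.49-fold, and the arrays of each pair lay close together.

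Cd80 was 8.45 and 8.30 in control and 6.65 and 6.76 in tumor-bearing mice (-1.67 ± 0.19, limma adjusted p = 3.83e-05). This rests on 1 probe, since its other probe lay near the detection limit, between 4.67 and 5.06 on these arrays, and gave 0.23 ± 0.19. Cd83, at 6.54 and 6.23 in control, was 4.82 and 4.94 in tumor-bearing mice, where 1 of 2 arrays detected it (-1.50 ± 0.19, limma adjusted p = 1.27e-04). Cd86, the other CD28 ligand, overlapped between the groups, with 8.07 and 8.20 in control against 7.92 and 8.39. Its change was 0.01 with a 95% interval from -0.44 to 0.46 (limma adjusted p = 0.972), and its other probes gave 0.55 (adjusted p = 0.0569) and -0.13. The size of the changes depended on background correction. Without it the same 8 genes passed, but Cd83 changed by -0.56, H2-Eb1 by -0.67, H2-Ea by -0.80 and Ciita by -0.81. Cd80 changed by -1.12, H2-DMa by -1.40 and H2-Ab1 by -1.76, while Cd74, the brightest, changed by -2.28.

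Genes of class II loading and antigen processing fell in part. Of 10 tested, 5 fell and 1 rose, with a median of -1.02. The fallers were the H2-DM beta chain genes H2-DMb2 (-2.55 ± 0.20) and H2-DMb1 (-1.95 ± 0.21), both chains of H2-DO, the inhibitor of H2-DM that B cells make (H2-Oa -2.02 ± 0.20 and H2-Ob -1.69 ± 0.20), and Ifi30, a lysosomal thiol reductase (-1.66 ± 0.19). The riser was Ctsl, a lysosomal protease (0.99 ± 0.20). The general proteases Ctss (0.38) and Lgmn (0.25) and the ligase gene Marchf1 (-0.37) did not pass. Among 7 tested genes of the promoter-binding factors and their partners, such as Creb1 and Nfya, 0 passed limma, and 0 had an unadjusted p below 0.05. In the interferon gamma route, which induces Ciita, 2 of 6 rose, the receptor gene Ifngr1 by 1.24 ± 0.20 and the kinase gene Jak2 by 0.81 ± 0.20, and 0 fell. Other ligands of T cell costimulation and inhibition moved both ways, with 1 riser and 3 fallers among 6. Tnfsf9, the 4-1BB ligand gene, rose by 2.45 ± 0.19, while Cd40 (-2.20 ± 0.19), the PD-L1 gene Cd274 (-0.84 ± 0.19) and Icam1 (-0.63 ± 0.21) fell. With every array scaled to 1 median, that list had 2 risers and 2 fallers.

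Markers of other cell types were measured beside these genes. Of 7 tested B cell markers 6 fell, with a median of -2.41, and their summed normalized level was 2604 to 3078 in control against 452 to 519 in tumor-bearing mice. Dendritic cell markers fell in 2 of 5 cases, Batf3 and Ccr7, with summed levels of 367 to 417 against 244 to 312, and of that list Flt3 and Xcr1 were detected on 0 arrays. Of 5 tested monocyte and macrophage markers 3 fell (2633 to 2781 against 2431 to 2546, Ccr2 not detected on any array), and T cell markers in 4 of 5 (1367 to 1483 against 488 to 525). Neutrophil markers rose in 4 of 11 cases and fell in 0 (77694 to 84179 against 76661 to 87231). Under median scaling 2 monocyte and macrophage markers fell and 5 neutrophil markers rose, with the other marker counts as given. Their part in the class II result was not tested, and in bulk RNA fewer cells of a type cannot be told apart from less RNA per cell.

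The next comparison asked how cultured samples labelled with G-CSF, the cytokine that drives neutrophil production, differed from those without it, over 3 arrays each. Cd80 fell most among these genes, 5.46-fold, and Ciita fell 3.43-fold. The chain genes and Cd74 fell less, between 1.57-fold (H2-DMa) and 2.33-fold (H2-Ab1), and neither Cd83 nor Cd86 passed the test. Without background correction Ciita fell less than Cd74 and most of the chain genes, as given below. In all, 7 of 9 fell and 0 rose, where 12.3% of the 8610 genes tested fell and 16.6% rose. Their median was -1.03, against 0.06 over all genes. When arrays were instead brought to one median, without equal distributions, this shifted the median of all genes to 0.41, and the share of called genes that rose went from 57.3% to 88.9%. Under that scaling 6 of these 9 genes still fell, with smaller log2 changes of -1.94 for Cd80, -1.34 for Ciita, -0.80 for H2-Ea, -0.73 for H2-Ab1, -0.66 for Cd74 and -0.51 for H2-Eb1. H2-DMa did not pass (-0.09) and Cd86 passed as higher (0.43, adjusted p = 0.0471), at 0.01 above the median of all genes.

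Cd80 stood at 9.38, 9.64 and 9.56 without G-CSF (no addition, CCL2, CCL5) and at 6.97, 7.26 and 7.001 with it. The matched pairs differed by -2.41, -2.38 and -2.56, so the groups lay far apart, and the fitted change was -2.45 ± 0.16 (SE, n = 3 and 3, limma adjusted p = 7.16e-05). Its dim probe gave -0.43 (adjusted p = 0.113). Ciita was 6.97, 7.02 and 6.63 without and 5.40, 4.95 and 4.95 with G-CSF (-1.78 ± 0.17, limma adjusted p = 3.15e-04), while its other probe, near the detection limit, gave -0.45 (adjusted p = 0.0913). Without background correction Ciita changed by -0.75 and Cd80 by -1.88, both past the test. Ciita then fell less than H2-Ea (-1.13), H2-Ab1 (-1.05), Cd74 (-0.99) and H2-Eb1 (-0.87), and more than H2-DMa (-0.47).

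H2-Ab1 was 9.62, 9.83 and 9.80 without G-CSF and 8.38, 8.79 and 8.43 with it (-1.22 ± 0.16, limma adjusted p = 0.00123). Its other probes gave -1.46 and -0.64, the latter from a probe detected on 0 of 3 arrays with G-CSF. H2-Ea was 11.24, 11.43 and 11.10 without and 10.13, 10.18 and 9.86 with G-CSF (-1.20 ± 0.16, limma adjusted p = 0.00117). For H2-Eb1 the levels were 10.70, 10.68 and 10.74 against 9.70, 9.84 and 9.78 (-0.93 ± 0.16, limma adjusted p = 0.00330). None of these groups overlapped, and all 3 matched pairs of each gene went down. Cd74 was 11.66, 11.65 and 11.66 without and 10.57, 10.56 and 10.74 with G-CSF (-1.03 ± 0.16, limma adjusted p = 0.00214), with other probes at -1.36 and -0.89. H2-DMa was 8.49, 7.87 and 8.21 without and 7.47, 7.66 and 7.49 with G-CSF, so that the groups did not overlap but its pairs differed unevenly, by -1.02, -0.22 and -0.71. The change of -0.65 ± 0.19 (limma adjusted p = 0.0343) was lost without the untreated, the CCL5, the G-CSF or the G-CSF with CCL5 array (adjusted p from 0.0997 to 0.178) and without a filter on dim probes (0.0703).

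Cd83 stood at 9.20, 9.35 and 9.43 without G-CSF and at 9.13, 9.10 and 9.23 with it, overlapping groups with a change of -0.18 (95% interval -0.53 to 0.18, limma adjusted p = 0.432). Cd86 was 9.57, 9.75 and 9.88 against 9.56, 9.76 and 9.78 (-0.04, 95% interval -0.39 to 0.32, limma adjusted p = 0.891).

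Loading and processing genes fell in 5 of 9 cases and rose in 0 (median -0.93). H2-DMb2 (-1.51 ± 0.17), H2-Ob (-1.33 ± 0.19), Ifi30 (-1.14 ± 0.16) and H2-DMb1 (-1.11 ± 0.17) fell, and the fifth was the protease gene Lgmn. In that list 4 fell and 2 rose under median scaling. Of 9 promoter-factor genes 1 fell, the coactivator gene Crebbp (-0.54 ± 0.18, adjusted p = 0.0499972), whereas under median scaling 0 fell and 2 rose. Of 6 genes of the interferon gamma route 0 passed limma and 0 had an unadjusted p below 0.05, and 4 rose under median scaling. Among 7 other costimulatory and coinhibitory ligands Icosl (0.89 ± 0.21), Cd40 (0.73 ± 0.16) and Icam1 (0.53 ± 0.16) rose and Tnfsf14 fell by 1.58 on the log2 scale (SE 0.16). Median scaling gave 5 risers and 1 faller there. B cell markers fell in 5 of 7 cases with a median of -1.19, and their summed level was 1972 to 2152 without G-CSF against 647 to 790 with it. Dendritic cell markers fell in 3 of 4 cases (300 to 397 against 219 to 262), monocyte and macrophage markers in 2 of 5 (2219 to 2325 against 2224 to 2479) and T cell markers in 4 of 5 (3595 to 3799 against 868 to 943). Neutrophil markers rose in 3 and fell in 2 of 11 cases (60437 to 62934 against 65376 to 66123). Median scaling turned the monocyte and macrophage list to 3 risers and 1 faller, and gave 2 fallers each for T cell and dendritic cell markers, 5 for B cell markers, and 5 risers and 1 faller for neutrophil markers. The part of these markers in the class II result was not tested.

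**Figure D2:**
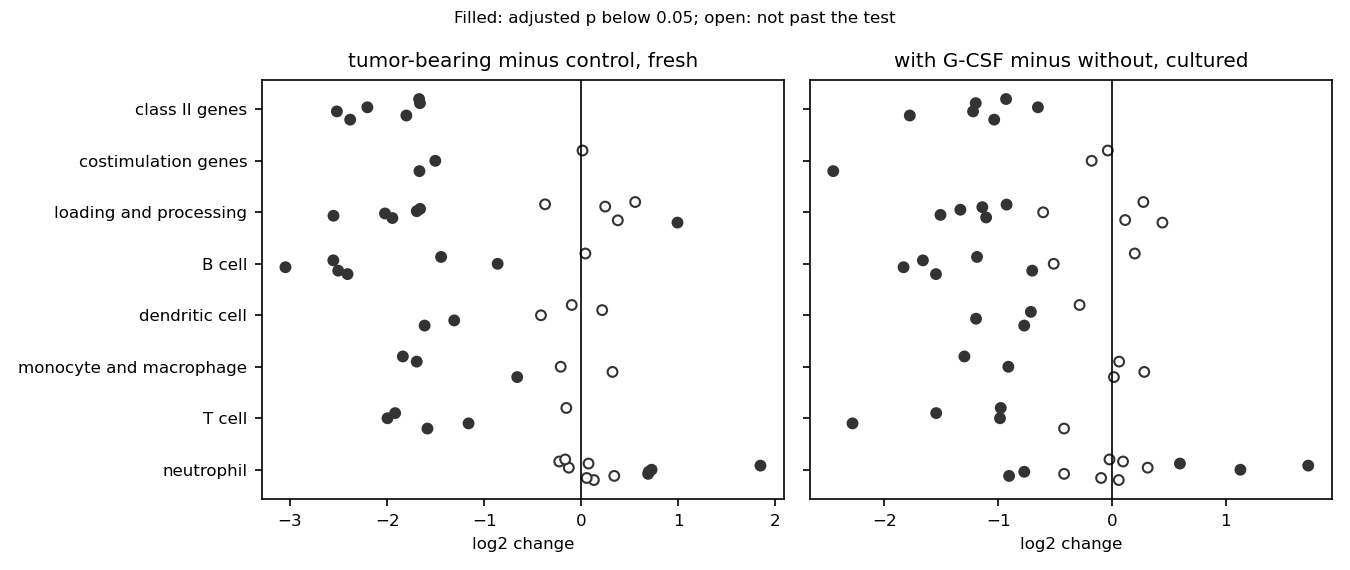
Log2 change (horizontal axis) of each tested gene, 1 point per gene, for the class II genes (including Ciita), the costimulation genes, the loading and processing list and 5 marker lists, with tumor-bearing against control on the left and G-CSF against none on the right. Filled points passed limma at an adjusted p below 0.05. In both panels the class II genes and most B cell markers lie left of 0, and most neutrophil markers lie around or right of it.

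Whether a gene changed by a different amount in tumor-bearing mice and with G-CSF was tested as the difference of both effects in 1 fit of all 10 arrays. These effects share no arrays. H2-DMa (-1.55 ± 0.28, limma adjusted p = 0.00207), Cd74 (-1.35 ± 0.27, 0.00391), Cd83 (-1.32 ± 0.24, 0.00241) and H2-Ab1 (-1.30 ± 0.24, 0.00261) were lower in the tumor effect than in the G-CSF effect. For Cd74 this depended on the probe, since ILMN_1247832 gave 0.11 (adjusted p = 0.812) and ILMN_3089584 gave -1.12 (adjusted p = 0.00750). Cd80 went the other way (0.78 ± 0.23, limma adjusted p = 0.0289). So 4 of 9 were lower and 1 higher, where 13.2% of 9744 genes tested were lower and 7.88% higher. For Ciita the effects differed by -0.03 (95% interval -0.55 to 0.50) and for Cd86 by 0.05 (-0.50 to 0.60). The tested Ciita probe lay at 5.21 to 5.29 in tumor-bearing mice and at 4.95 to 5.40 with G-CSF. Both ranges are close to the dimmest detected probe of an array (4.78 to 4.92), so a difference in size between the Ciita effects could be hidden. H2-Ea (-0.46, interval -0.99 to 0.06) and H2-Eb1 (-0.74, interval -1.49 to 0.01) did not pass, but did under median scaling (adjusted p = 0.0114 and 0.0125), and H2-Eb1 also without the first tumor-bearing array (-1.26, adjusted p = 0.0135). Without background correction, which shrinks changes of dim probes, their differences were 0.33 and 0.19 and did not pass. The same 5 genes passed there, with smaller differences for H2-DMa (-0.92), H2-Ab1 (-0.71) and Cd83 (-0.40). The Cd80 difference did not pass under median scaling (0.37) or without any 1 of the 4 fresh arrays, the CCL5 array or the G-CSF with CCL5 array (adjusted p from 0.0557 to 0.115).

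**Figure D3:**
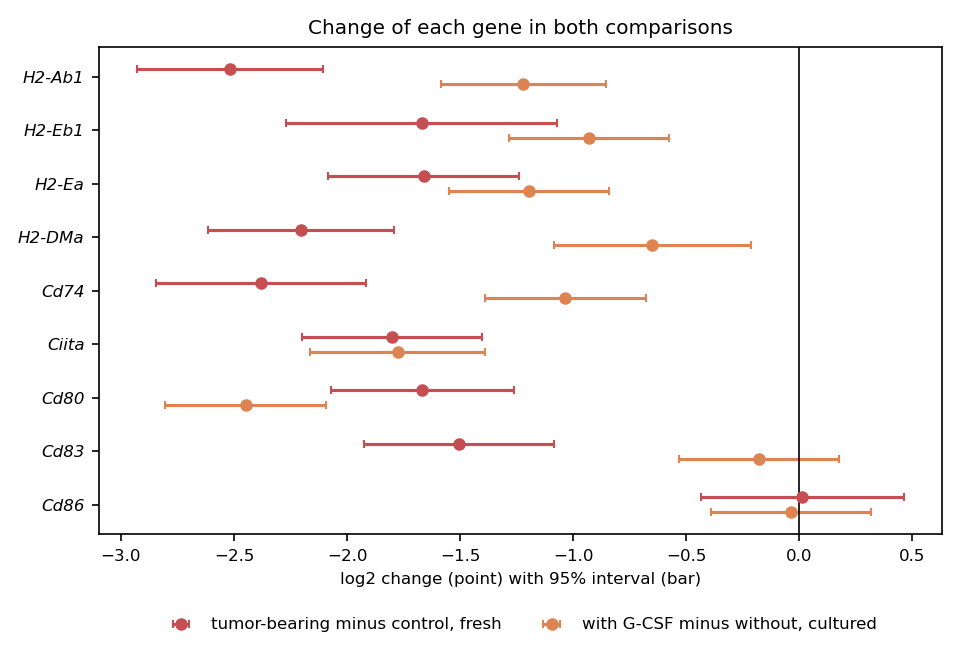
Log2 change (horizontal axis) of the 9 tested genes, with tumor-bearing minus control in red (2 against 2 arrays) and with minus without G-CSF in orange (3 against 3 arrays), and 95% intervals of the limma fits as bars. The intervals of Ciita, whose levels came near the detection limit in both comparisons, nearly coincide. That of Cd83 spans 0 with G-CSF alone, and both intervals of Cd86 span 0.

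CCL2 and CCL5 attract monocytes and lymphocytes. Over arrays with and without G-CSF, 0 of the 9 genes passed limma for either chemokine, as did 0 of 8610 genes overall (0%). At an unadjusted p below 0.05 there were 0 of these genes for each, against 437 genes overall for CCL2 and 351 for CCL5. Changes ran from -0.22 (H2-DMa) to 0.31 (H2-Ab1) with CCL2 and from -0.40 (Ciita) to 0.26 (Cd86) with CCL5, with standard errors of 0.19 to 0.23. The smallest unadjusted p was that of Ciita with CCL5, 0.0915. For Ciita, CCL5 minus none was -0.34 without G-CSF and -0.45 with it. A G-CSF effect that depends on the chemokine was tested in a fit of 8 group means whose spread comes from the fresh pairs. It was found for 0 of these genes (smallest limma adjusted p = 0.554, H2-DMa with CCL2) and 0 of 9744 genes. At an unadjusted p below 0.05 there were 884 of the 9744 genes for CCL2 and 707 for CCL5. For H2-DMa with CCL2 the difference was 0.81 ± 0.37. Standard errors of these genes ran from 0.35 to 0.56, so a dependence of moderate size could be missed.

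The last comparison set untreated culture against fresh control, over cells prepared and handled apart, so culture and any other difference between the fresh and the cultured arrays cannot be told apart. Cd83 rose 7.32-fold, Cd86 2.72-fold and Cd80 2.03-fold, while Ciita did not pass the test. H2-Ea and H2-Eb1, which encode both I-E chains, were 17.2-fold and 16-fold higher. By the tested probes 6 of 9 genes rose and 1 fell, where 16.4% of the 9744 genes tested rose and 17.8% fell. Over all genes 47.9% of the calls were higher, or 34.9% under median scaling, which moved the median of all genes from -0.02 to -0.13.

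Cd83 was at 9.20 in untreated culture, against 6.54 and 6.23 in fresh control (fitted change 2.87 ± 0.20, n = 1 and 2, spread pooled over 10 arrays, limma adjusted p = 2.79e-07). For Cd86 the level was 9.57 against 8.07 and 8.20 (1.45 ± 0.21, limma adjusted p = 1.61e-04), and its other probes gave 2.32 and 1.44. Cd80 was 9.38 against 8.45 and 8.30 (1.02 ± 0.19, limma adjusted p = 0.00106), and its dim probe gave 0.28 (adjusted p = 0.368). Every cultured array was above both control arrays for Cd83 and Cd86, whether or not G-CSF was present. Ciita was 6.97 in untreated culture against 7.03 and 7.07 (0.02, 95% interval -0.42 to 0.46, limma adjusted p = 0.948). H2-DMa did not pass either (-0.10, interval -0.59 to 0.40).

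H2-Ea stood at 11.24 in untreated culture against 7.05 and 7.32 (4.10 ± 0.20, limma adjusted p = 1.16e-08), and H2-Eb1 at 10.70 against 6.69 and 6.62 (4.00 ± 0.29, limma adjusted p = 3.37e-07). All 6 cultured arrays were above all 4 fresh arrays for both genes. H2-Ab1 gave a different answer with each of its 3 probes. The tested probe, ILMN_2913716, was 9.62 in untreated culture against 9.07 and 8.98 (0.59 ± 0.20, limma adjusted p = 0.0363). Probe ILMN_2631423 was 8.97 against 10.06 and 9.69 (-1.004 ± 0.23, adjusted p = 0.00414). Probe ILMN_1226525, the brightest of them in fresh control at 10.85 and 10.45, was 4.70 in untreated culture and not detected there. That is at least 55.8-fold lower, since the untreated array was set to no less than its dimmest detected probe (fitted change -5.78, adjusted p = 6.58e-10).

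The H2-Ab1 probes split between fresh and cultured arrays, whatever the treatment. ILMN_1226525 minus ILMN_2913716 was 1.26 to 1.78 on the 4 fresh arrays, tumor-bearing included, and -4.92 to -3.98 on the 6 cultured arrays, where ILMN_1226525 was detected on 2. The changes of the H2-Ab1 probes in this comparison spanned 6.37, the fourth widest span among 3556 genes with at least 2 detected probes (median 0.59). The wider ones were H2-D1 (9.23) and H2-K1 (8.59), class I genes of the same complex, and the beta globin gene Hbb-bt (7.23). In the tumor comparison the H2-Ab1 probes spanned 0.32, close to the median of 0.34. Genes of this complex are highly polymorphic, some mouse haplotypes make no I-E alpha chain, and RefSeq annotates H2-Ea of the C57BL/6J reference as a transcribed pseudogene. All labels give the same strain name, and whether the mice behind the fresh and the cultured arrays carried the same alleles was not tested. Cd74, on another chromosome, also differed by probe but less: its tested probe gave -0.64 ± 0.22 (limma adjusted p = 0.0400), and the others -0.59 and 0.55. The calls of Cd74 and of H2-Ab1 on its tested probe were lost in 7 and 6 of 10 fits that left out 1 array.

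**Figure D4:**
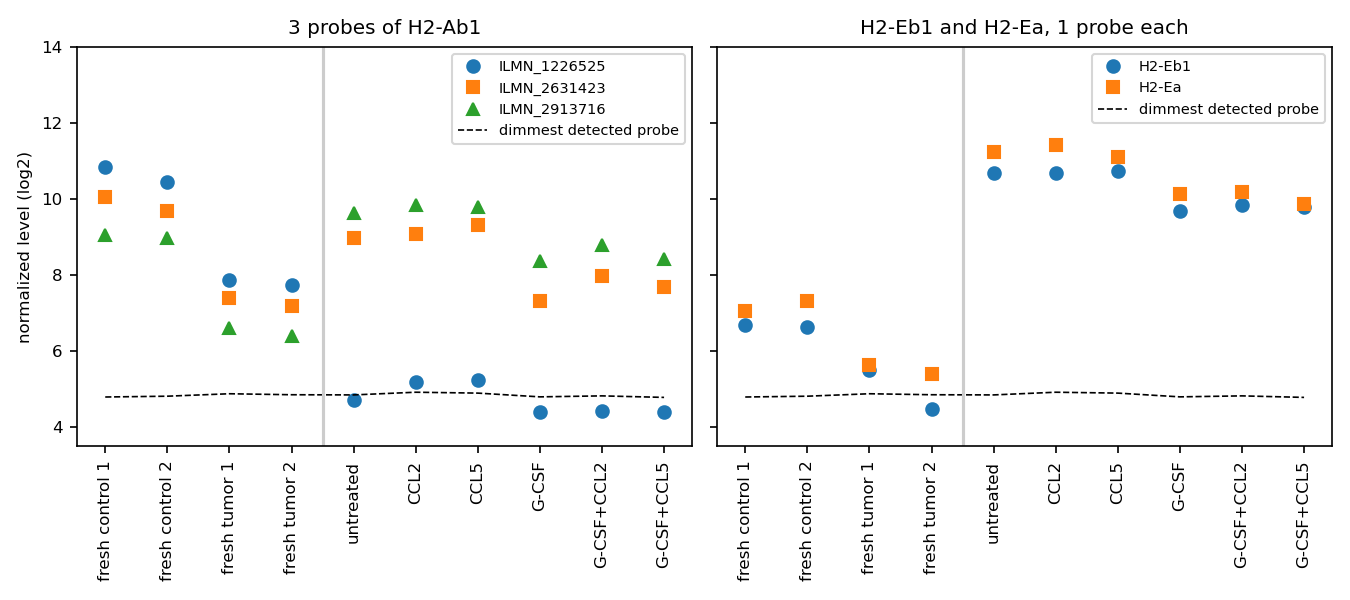
Normalized level (log2, vertical axis) on each of the 10 arrays (horizontal axis) of the 3 H2-Ab1 probes on the left and of H2-Eb1 and H2-Ea on the right, with the dimmest detected probe of each array as the dashed line. Left of the vertical grey line are the 4 fresh arrays, where the 3 probes keep 1 order, and right of it the 6 cultured arrays, where ILMN_1226525 lies near the dashed line and H2-Eb1 and H2-Ea lie between 9.70 and 11.43.

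Related genes moved in this comparison as follows. Of 10 loading and processing genes 2 rose, Lgmn by 2.08 ± 0.23 and Ctsl by 0.70 ± 0.25, and 4 fell, among them Marchf1 (-3.02 ± 0.23), the ligase that Cd83 opposes, and H2-Oa (-1.48 ± 0.31). Under median scaling 1 rose and 6 fell. Among 8 other ligands Icam1 (3.49 ± 0.23), Cd274 (1.91 ± 0.20) and Icosl (1.80 ± 0.24) rose and Tnfsf14 fell by 1.36 on the log2 scale (SE 0.19), with the same counts under median scaling. Of 9 promoter-factor genes 2 rose (Creb1 0.80 and Ep300 0.61) and Rfxap fell (-1.34), with 1 of each under median scaling, and of 6 genes of the interferon gamma route Jak2 rose (1.06) and Jak1 (-1.47) and Irf1 (-0.64) fell. B cell markers fell in 2 of 7 cases and rose in 0, T cell markers rose in 4 and fell in 1 of 6, dendritic cell markers fell in 1 of 6, monocyte and macrophage markers rose in 1 and fell in 2 of 5, and neutrophil markers rose in 3 and fell in 5 of 11. Under median scaling T cell markers rose in 2 and fell in 1 case, 3 B cell and 2 dendritic cell markers fell, and neutrophil markers rose in 4 and fell in 5. The part of these markers was not tested.

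Over the 10 arrays, the genes whose levels followed H2-Ab1 (ILMN_2913716) most closely among 9743 were Lyl1 (Pearson's r = 0.981), Rtl8a (0.978), Pigp (0.977), Timm9 (0.976) and Sdr39u1 (0.975). Those closest to Cd83 were Nod1 (0.999), Cyb5r3 (0.997), Bcl2a1d (0.995), Cnih4 (0.994) and Prkd3 (0.992). These values are descriptive. For Cd83 the arrays fall into a fresh and a cultured cluster. For ILMN_2913716 the tumor-bearing arrays lay below all others, and fresh control lay within the range of the cultured arrays. The genes named for H2-Ab1 were matched to this probe only, and its probes split between fresh and cultured arrays. Ordered by group mean, Cd83 was lowest in tumor-bearing and then control mice, with both cultured groups highest and overlapping. Ciita had means of 7.05 in fresh control and 6.88 in culture without G-CSF, with nearest arrays at 7.03 and 7.02. Its test of untreated culture against fresh control did not pass. Ciita was lowest in tumor-bearing mice and with G-CSF, which overlapped.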

How the data were processed

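Purified mouse neutrophils were profiled on 10 Illumina bead arrays. Per the labels, RNA was taken up in Trizol and labelled with Cy3. Per the file headers, the deposited table gives the mean signal intensity, bead number, bead standard error (other) and detection p-value of each probe. Its intensity values were at least 75.2 and had array medians from 99.2 to 124, as signals without subtraction or scaling do. A second deposited table of log2 values equalled quantile-normalized log2 signals to within 0.00531. Partek is named in the submitters' processing notes, without a version or role.

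Intensities were corrected with limma 3.58.1 (R 4.3.3; normexp through nec, offset 16, negative controls inferred from detection p-values), quantile-normalized and log2-transformed. Of 45281 probes 34885 name 1 gene in the platform annotation, 18 several and 10378 none. Probes detected (p-value below 0.05) on at least 2 arrays of a fit were kept, and the one with the highest mean over all 10 arrays represented its gene. This can miss transcript variants, and normexp with a small offset widens changes of dim probes.

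Limma fits (empirical Bayes, two-sided, Benjamini-Hochberg over all genes, adjusted p below 0.05) covered the 4 fresh arrays, the 6 cultured arrays with additive G-CSF, CCL2 and CCL5 terms, or all 10 with both layouts. Residual degrees of freedom were 2, 2 and 4. The interaction of G-CSF with chemokines was added after the data were seen. Fits were tested on simulated data. The members and lists were chosen with earlier results of these data known. Named genes are all members, up to 4 called genes per pathway list and direction, and the 5 genes most like H2-Ab1 and Cd83. The uncalled genes named, and H2-D1, H2-K1 and Hbb-bt, were chosen after their values were seen. Alternatives varied background correction, scaling, filter, probe rule, samples and left-out arrays. The number of arrays limits the precision.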

Additional observations from a re-analysis of the deposited data

How the results depend on the processing

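Among the tested genes, all 8 tumor calls kept their direction and side of the threshold under every alternative run (no background correction, median scaling, the authors' processed values, no or a stricter filter, the mean of probes, a fit of all 10 arrays, a replicate block and each left-out array), except that the dim Cd80 probe gave 0.23. With the replicate block 2316 genes passed, against 2086, and 8 of the 9 genes. The deviations of same-numbered control and tumor-bearing arrays had a correlation of 0.065 over genes. With 1 pair of arrays per group this cannot show whether equal replicate numbers stand for a shared preparation. Leaving out 1 array gave 1087 to 1901 genes for tumor-bearing against control (1323 and 1087 without the first and second tumor-bearing array), 1443 to 2058 for G-CSF against 2485 (1489 without the untreated and 1443 without the G-CSF array), 0 to 1 for CCL2 against 0 (1 without the CCL2 array), 2168 to 3330 for culture against 3335 (2168 without the untreated array), and 1103 to 1861 for the difference of both effects against 2059 (1273 without the first control, 1317 and 1103 without the first and second tumor-bearing array). Median scaling gave 4512 genes for G-CSF and 3172 for the difference, of which 15.4% were higher, against 37.3%. It turned Cd86 with G-CSF to 0.43. In culture against fresh control H2-Ab1 turned to -2.07 as the mean of its probes and to -5.78 and -1.004 on its other probes, and Cd74 to 0.55 on ILMN_1247832, which also turned its difference of effects to 0.11. The cause was not tested. Of the values of single genes under alternatives, 126 of 135 kept their call for G-CSF, 135 of 135 for each chemokine, 157 of 180 for culture and 150 of 162 for the difference. An uncalled gene that stayed uncalled was counted as kept, whatever its sign. All chemokine values were of this kind, so their count does not measure stability. A fit of fresh control with the 3 cultured arrays lacking G-CSF, chosen after seeing the data, kept all 7 culture calls. H2-Aa and the dim probes of Ciita and Cd80 lie at the detection limit, so their changes could not be measured well.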
